A study of Mus musculus with 6 samples.

Results

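The genes examined were those for the subunits of the proteasome, taken as all mouse symbols that begin with Psma, Psmb, Psmc or Psmd followed by a number. The count tables held 39 transcript IDs for 38 such genes, out of 23485 IDs and 20937 named genes. Of the 38 genes, 18 belonged to the core particle (Psma and Psmb, 19 IDs) and 20 to the regulatory particle (Psmc and Psmd, 20 IDs). RNA-seq was performed on whole brains of wild-type C57BL/6 mouse embryos at embryonic stage E15.5, with 3 female and 3 male samples. Several embryos were pooled for the RNA of every sample and sexed by whether the gonads had testicular cords, and the design compared male with female brains. No treatment or transgene was involved, and the labels name no day, lane or litter.

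The proteasome is the large protease that degrades ubiquitin-tagged proteins in the cytosol and nucleus. Its core particle is a barrel of stacked rings, in which the outer rings of alpha subunits gate the entrance and the inner rings of beta subunits hold the active sites. The regulatory particle caps the barrel, where ATPases unfold the substrate and lid and scaffold subunits bind ubiquitin chains and remove them. In the developing brain the proteasome is known for the turnover of cell cycle regulators, transcription factors and axonal proteins. Immunosubunits replace the catalytic beta subunits in immune cells and after interferon, and further variants are specific to thymus and testis.

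Totals ranged from 4908565 to 10294443 counts per sample, and a count of 0 allowed up to 3 counts, or 0.3 to 0.599 CPM (counts scaled by TMM-adjusted library totals). Counting error alone is covered by that limit. Xist, Ddx3y and Kdm5d matched the labelled sex in all 6 samples. The neuronal markers Tubb3 and Stmn2 and the progenitor markers Vim and Nes were abundant, with female means of 1370, 554, 1690 and 534 CPM. Others were low, such as Dcx (3.21 CPM), Hes5 (14 CPM) and the Snap25 IDs (0.511 and 0.772 CPM). Some markers of other tissues were also abundant, with female means of 2600 CPM for Myh3 (muscle), 7080 for Col1a1 (fibroblasts) and 914 for Dsp (epithelium). Levels below are therefore those of the whole dissected tissue. Eomes, of intermediate progenitors, had 0 or 1 count, and Pax6 was not analysed here. Summed marker lists overlapped between the sexes for neurons (2860 to 3887 CPM), progenitors (2887 to 3248), microglia (205.5 to 285.5), erythroid cells (630.1 to 1168), cartilage (61.27 to 202.9), skeletal muscle (4171 to 5195), meninges and fibroblasts (17470 to 25770) and surface epithelium (1528 to 2535). The endothelial list did not overlap, at 683.1 to 728.5 CPM in females and 602.4 to 681.3 CPM in males. Within it Cdh5, Flt1 and Kdr had all males below all females (-0.26, -0.22 and -0.17), while Cldn5 and Tie1 were above 0 (0.43 and 0.18). Among single markers, log2 fold changes (male minus female) were 0.77 (SE 0.21, edgeR adjusted p 0.338) for the progenitor gene Hes5, 0.39 (SE 0.15, adjusted p 0.378) for Sox2 and 0.39 (SE 0.14, adjusted p 0.356) for Tubb3. Hes5 and Sox2 did not overlap between the sexes, with males above, while Vim and Nes had 0.05 and -0.04. Of the 10 tested neuronal IDs 5 were below 0, among them Tbr1 (-0.27) and Gad2 (-0.28, SE 0.13, edgeR adjusted p 0.43). The males of Gad2 all lay below the females. Dcx, at few counts, had all males above the females (0.55, SE 0.35, edgeR adjusted p 0.55). In the cartilage list 4 of 6 tested IDs were below 0 (median -0.47), led by Col9a1 (NM_007740, -0.91, SE 0.27, edgeR adjusted p 0.341) and Matn1 (-0.78, SE 0.33, adjusted p 0.396). In the surface epithelium list 5 of 5 were above 0 (median 0.21), led by Krt15 (0.51, SE 0.18, edgeR adjusted p 0.352), and Epcam (0.26) did not overlap. The part of these cell types in the differences below was not tested. In bulk RNA, fewer cells of a type and less RNA per cell cannot be told apart.

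Short sequences from the starts of these genes are shown because many proteasome genes are known to be controlled through the antioxidant response element, bound by Nfe2l1 and Nfe2l2 with small Maf partners. Promoters of 300 bases, from 250 before the start, were available from RefSeq (GRCm38.p6) for 32 of the 38 genes and for Psmd4. Psmb1, Psmb2, Psmb7, Psmc3, Psmd3 and Psmd7 had no entry. The core of the element was searched as TGACNNNGC on both strands. It was found in 5 of 35 promoters (14.3%), compared with 12.4% of all 32851 promoters of this length. The 3 matches nearest to a start are printed with the matched bases in capitals and flanks in lower case.
Psmb5: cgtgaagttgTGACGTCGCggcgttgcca
Psmb6: ctaaagagagTGACGGAGCgctttacgac
Psmd9: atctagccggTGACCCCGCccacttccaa
The Psmb5 stretch lies at chr14:54618024-54618052 on the minus strand, with the match at -47 from the start. The Psmb6 stretch lies at chr11:70525338-70525366 on the plus strand, with the match at -9. The Psmd9 stretch lies at chr5:123228149-123228177 on the plus strand, with the match at -31. The other matches were in Psmc6 and Psmd12, at -227 and -247. A CCAAT box was found in 40.0% of these promoters and 37.4% of all promoters. The element of nuclear respiratory factor 1 was found in 2.86% and 0.971%, and the single member promoter with it was that of Psma2. These letter matches are descriptions.

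Levels were compared between genes first, as CPM per kb of the longest coding transcript in GENCODE (NCBIM37), averaged over the 6 samples. Psmb6, the caspase-like catalytic subunit, had the highest level at 368 CPM per kb. It was followed by the structural beta subunits Psmb1 at 233 and Psmb2 at 229 CPM per kb. The alpha ring was led by Psma1 at 169 CPM per kb, and Psmb4 and Psmb7 had 149 and 147 CPM per kb. In the regulatory particle the lid subunit Psmd8 had the highest level, 190 CPM per kb. The ATPases Psmc3, Psmc4, Psmc6, Psmc5, Psmc1 and Psmc2 had 155, 145, 111, 102, 97 and 77.5 CPM per kb. The scaffold subunit Psmd1, which has the longest transcript of the better-measured members (3112 nt), had 106 CPM per kb. Psmd14, the deubiquitinase of the lid, had 112 CPM per kb.

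**Figure D1:**
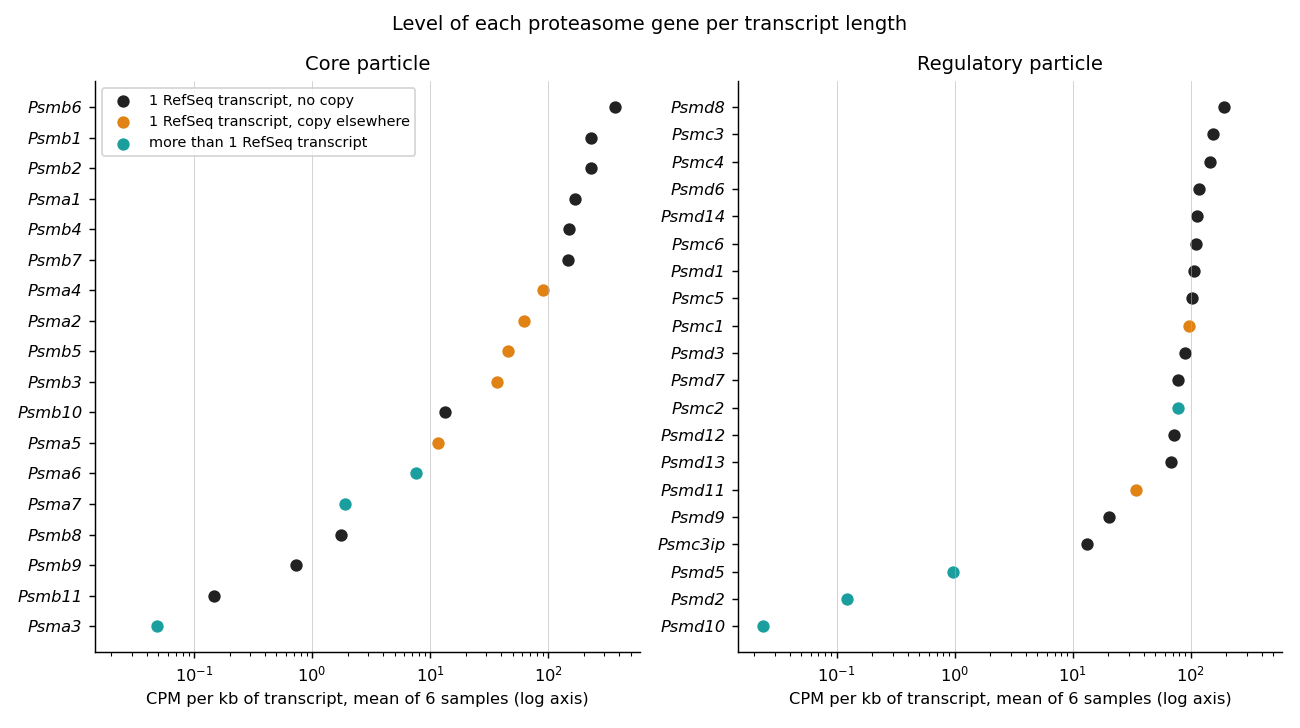
Mean level over the 6 samples in CPM per kb of transcript (horizontal log axis) for the 18 core particle genes (left) and 20 regulatory particle genes (right), coloured by the number of RefSeq transcripts and by copies of the coding sequence elsewhere in the genome. Of the 7 genes with more than 1 RefSeq transcript, 6 were under 10 CPM, and Psmc2 was the exception.

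The low end of this order held genes of several transcripts as well as Psmb8, Psmb9 and Psmb11, which have 1 RefSeq transcript and no copy. Of the 7 genes with more than 1 RefSeq transcript, 6 had means under 10 CPM. These were Psma3, Psma6, Psma7, Psmd2, Psmd5 and Psmd10, with 0.0485, 7.62, 1.89, 0.122, 0.96 and 0.0236 CPM per kb. Psma3, Psma6 and Psma7 encode obligate subunits of the alpha ring, and Psmd2 encodes a scaffold of the regulatory particle. The tables held 1 ID each for Psma3, which has 3 RefSeq transcripts, and for Psma7 and Psmd2, which have 2, and the ID of Psmd2 was that of a non-coding RNA (NR_027485). Psmc2 also had more than 1 RefSeq transcript and was at 77.5 CPM per kb. Among all protein-coding genes the median was 15.2 CPM for the 11458 genes with 1 RefSeq transcript and 0.678 CPM for the 6140 with more than 1. The tables as analysed here held no ID for Psmd4, a ubiquitin receptor, or for the testis subunit Psma8. Levels of these genes therefore cannot be compared with those of the other members, and how the counting treated reads shared by several transcripts was not tested.

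Core genes with near-identical copies elsewhere in the genome had a lower median level than those without. A copy was counted where at least 50% of the coding sequence aligned outside the gene at 95% identity or more. Among genes with 1 RefSeq transcript, 5 core genes had such a copy. These were Psma4, Psma2, Psmb5, Psmb3 and Psma5, at 90.1, 62.9, 46.1, 36.8 and 11.6 CPM per kb and a median of 46.1. The place of Psma2 rests on its 2668 nt transcript, since per kb of coding sequence it had 226 CPM, beside 222 for Psmb4 and 205 for Psmb7. The 10 core genes without one had a median of 148 CPM per kb. The lowest of these 10 were the immunosubunits Psmb10, Psmb8 and Psmb9 and the thymus subunit Psmb11. In the regulatory particle, Psmc1 and Psmd11 had copies, at 97 and 34 CPM per kb. The constitutive chymotrypsin-like subunit Psmb5 thus had a lower count than its catalytic partners Psmb6 and Psmb7, and also had a full-length copy, so its level is uncertain. Whether reads were lost to copies was not tested.

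Catalytic subunits and their inducible counterparts were then compared within samples. The constitutive set of Psmb5, Psmb6 and Psmb7 summed to 417.1, 466.8 and 472.5 CPM in female samples 1, 2 and 3 and to 645.8, 553.4 and 473.1 CPM in male samples 1, 2 and 3. The immunosubunits Psmb8, Psmb9 and Psmb10 summed to 18.15, 17.78 and 18.38 CPM in females and to 28.56, 21.1 and 20.92 CPM in males. In summed CPM, which is not scaled to transcript length, the constitutive set was 22.61 to 26.26 times the inducible set. This ratio overlapped between the sexes, and it includes Psmb5, whose level is uncertain.

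Psmb10, which encodes the counterpart of Psmb7, had the highest counts of the inducible set. It was counted 87, 63 and 139 times in the females, against 238, 121 and 177 times in the males. Psmb8 (chromosome 17, 34334666 to 34338399), the counterpart of Psmb5, was counted 18, 17 and 36 times in the females, against 31, 10 and 25 times in the males. Psmb9 (chromosome 17, 34318932 to 34324697), the counterpart of Psmb6, had 7, 9 and 5 counts in females and 7 in each male sample, which was below the filter of 10 counts. Markers of microglia, which are known to use immunosubunits, were at 205.5 to 269.3 CPM in females and 243.2 to 285.5 CPM in males, summed over the list. Of its 7 tested IDs 5 were above 0 (median 0.27), with Tyrobp at 0.52, C1qa at 0.37 and Fcer1g at -0.25, and none was called. Of 6 tested IDs in a list of interferon response genes, 5 were below 0 (median log2 fold change -0.26, male minus female) and none was called. B2m, the light chain of class I molecules, had a log2 fold change of -0.50 (SE 0.20, edgeR adjusted p 0.385). Nlrc5, an activator of antigen presentation genes, had means of 2.8 CPM in females and 1.5 CPM in males.

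Whether proteasome genes differed between male and female brains was asked with edgeR's quasi-likelihood F test over the 13374 IDs that reached 10 counts in any sample. Of the 39 IDs, 34 were tested. Most had a small log2 fold change above 0 (male higher). Among members averaging 50 counts or more, the largest were those of Psmb4, Psmb10 and Psmb7 in the core particle and Psmc4, Psmd3 and Psmc3 in the regulatory particle. No member reached an adjusted p under 0.05, against 0.0299% of all tested IDs (4 IDs). At an unadjusted p under 0.05 there were 5 members higher in males (Psmb4, Psmb7, Psmb10, Psmc3 and Psmc4), or 14.7% of those tested, compared with 6.68% of all tested IDs. These counts moved when a library was left out, and so did the share of all tested IDs. Without female sample 3, 7 core and 4 regulatory members were higher in males at that threshold, with 10.2% of all IDs. Without male sample 3 it was 8 and 7, with 8.19% of all. Without female sample 1 it was 3 and 0, with 3.43% of all, and without female sample 2 it was 3 and 1, with 3.12%. Without male sample 1 it was 3 and 2, with 4.26% of all, and 2 regulatory members were then higher in females, Psmd11 (unadjusted edgeR p 0.00606) and Psmd7 (0.0189), with 5.23% of all. With length trends removed it was 3 and 0, with 4.96% of all. Upper-quartile scaling gave the same 3 and 2, while over all IDs 5.03% were then higher in males and 7.01% in females. Psmb11 was not counted among members higher in females, since it passed the filter only through female sample 2, but it is among the 34 IDs behind the 14.7%. DESeq2 called 1 member at an adjusted p under 0.05, Psmb4, against 0.71% of all tested IDs (95 IDs).

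In the core particle, 14 of 16 tested IDs had a log2 fold change above 0, with a median of 0.31. In the regulatory particle it was 16 of 18, with a median of 0.21. Of all tested IDs, 49% were above 0 and 51% below, with a median of -0.0078. Below 0 were Psmb8 in the core and Psmd7 and Psmd11 in the regulatory particle. The 16 core IDs also include Psmb11, which passed the filter only through female sample 2, so its direction is not read. With an alternative filter (filterByExpr) that left Psmb11 out, 14 of 15 core IDs were above 0, with a median of 0.33. The filter removed Psma3, Psmb9, Psmd2, Psmd10 and 1 of the 2 IDs of Psma6, so these counts are not over all members.

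**Figure D2:**
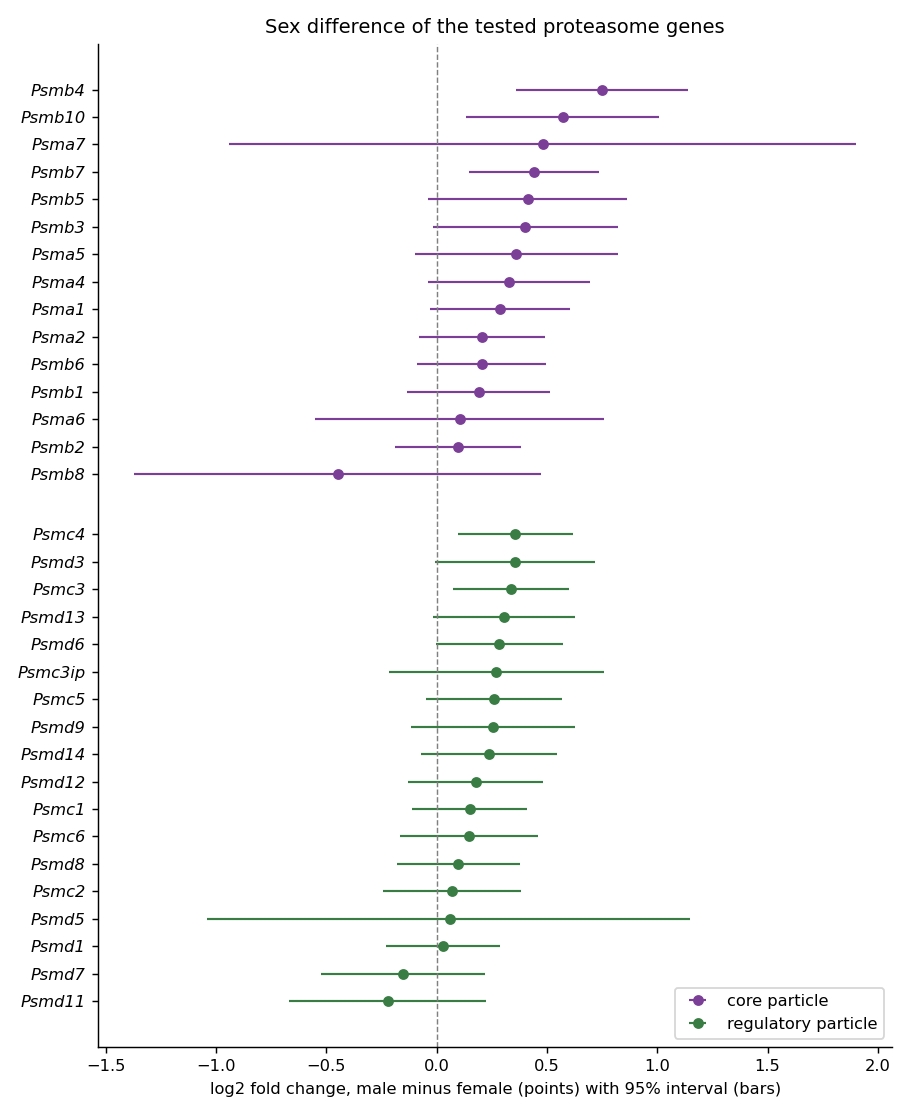
Log2 fold change, male minus female, of 33 tested IDs (points) with 95% intervals from edgeR (bars), core particle above and regulatory particle below. Psmb11, at 0 in all males, is left out. Intervals exclude 0 for Psmb4, Psmb7, Psmb10, Psmc3 and Psmc4 before adjustment, and no adjusted p is under 0.05.

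Psmb4 (NM_008945; NCBIM37 chromosome 3, 94688015 to 94690883) had the largest difference among members with a mean of at least 50 counts. It encodes a structural beta subunit that is needed for the rings to dimerise. Its level was 122.2, 101.3 and 170.5 CPM in female samples 1, 2 and 3 and 261.6, 211.3 and 192.8 CPM in male samples 1, 2 and 3. No female sample reached the lowest male, and female sample 3 and male sample 3 were the nearest pair. The means were a female mean of 131.3 CPM ± 35.5 and a male mean of 221.9 CPM ± 35.6 (SD, n = 3 each). The difference on the log2 scale was 0.75 (SE 0.18), or 1.68-fold, with an edgeR adjusted p of 0.338. Over the alternatives its log2 fold change ranged from 0.59 to 1.00 and its adjusted p from 7.53e-05 when low counts were kept to 0.809 when female sample 2 was left out. DESeq2 gave an adjusted p of 0.0194.

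Psmb7 (NM_011187; chromosome 2, 38443556 to 38499607), the trypsin-like catalytic subunit, had 126.1, 153.8 and 155.1 CPM in females and 220, 199.2 and 172 CPM in males. The sexes did not overlap, and male sample 3 was again the lowest male. On the log2 scale it differed by 0.44 (SE 0.14, edgeR adjusted p 0.341). Its counterpart Psmb10 (NM_013640; chromosome 8, 108459628 to 108462292) had 14.1, 12.58 and 14.19 CPM in females and 24.63, 18.5 and 17.71 CPM in males. The sexes did not overlap for Psmb10 either, and on the log2 scale it differed by 0.57 (SE 0.20, edgeR adjusted p 0.352). Part of the coding sequence of Psmb7 (25.3%) also aligned elsewhere in the genome, which leaves its count less certain than that of Psmb10.

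Psmb5 and Psmb6 overlapped between the sexes. Psmb5 (NM_011186; chromosome 14, 55232644 to 55236851) had 35.97, 27.37 and 39.72 CPM in females and 61.06, 37.15 and 39.43 CPM in males. Male sample 1 alone was above the females, and the difference on the log2 scale was 0.41 (SE 0.21, edgeR adjusted p 0.46). It was 0.15 without male sample 1 and 0.20 with length trends removed. Psmb6 (NM_008946; chromosome 11, 70338869 to 70341360) had 255.1, 285.6 and 277.7 CPM in females and 364.7, 317.1 and 261.7 CPM in males. On the log2 scale it differed by 0.21 (SE 0.14, edgeR adjusted p 0.565), and it was -0.01 once trends with transcript length had been removed. Both had a match to the antioxidant response element near the start, and neither separated the sexes. Psmb8 had 2.92, 3.40 and 3.68 CPM in females and 3.21, 1.53 and 2.50 CPM in males, with a log2 fold change of -0.45 (SE 0.43, edgeR adjusted p 0.7).

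The alpha ring had log2 fold changes of 0.10 to 0.48 in its 6 tested IDs, all above 0 and none with an unadjusted p under 0.05. Psma6 fell below 0 without male sample 1 (-0.24) and with length trends removed (-0.09). Psma1 had a female mean of 182.9 CPM ± 19.7 and a male mean of 223.6 CPM ± 41.2 (SD, n = 3 each), and Psma4 had 92.94 CPM ± 22.9 (SD, n = 3) and 117.1 CPM ± 11.9 (SD, n = 3). Both overlapped. Psma7, with 3, 8 and 21 counts in female samples by number and 8, 19 and 24 in males, had the largest value of the ring (0.48) but an SE of 0.66, and it was 0.09 without female sample 1 and 1.00 without female sample 3. Of the other structural beta subunits, Psmb3 had 25.28, 19.78 and 27.47 CPM in females and 38.08, 32.56 and 25.82 CPM in males, and on the log2 scale it differed by 0.40 (SE 0.19, edgeR adjusted p 0.442). Psmb1 and Psmb2 had smaller values, 0.19 (SE 0.15) and 0.10 (SE 0.13), and without male sample 1 they were -0.01 and -0.02.

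Psmb11 was singled out after its values were seen. It encodes the beta subunit specific to the thymic cortex, and it was counted 5, 15 and 0 times in female samples 1, 2 and 3 and never in the 3 males. Female sample 3 was at 0 like the males, so the sexes overlapped and no fold is given. Only female sample 2 passed 10 counts, so nothing is read from its test. Prss16, another gene known from thymic cortex and chosen for the same reason, was counted 5, 11 and 3 times in the females, against 4, 2 and 2 times in the males. Ccl25 (NR_033527), of thymic epithelium, did not follow Psmb11, with 12, 4 and 10 counts in female samples by number and 11, 5 and 7 in males. Ptcra, known from thymocytes, had 0 to 2 counts per sample. The part of thymic RNA in the Psmb11 counts was not tested.

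**Figure D3:**
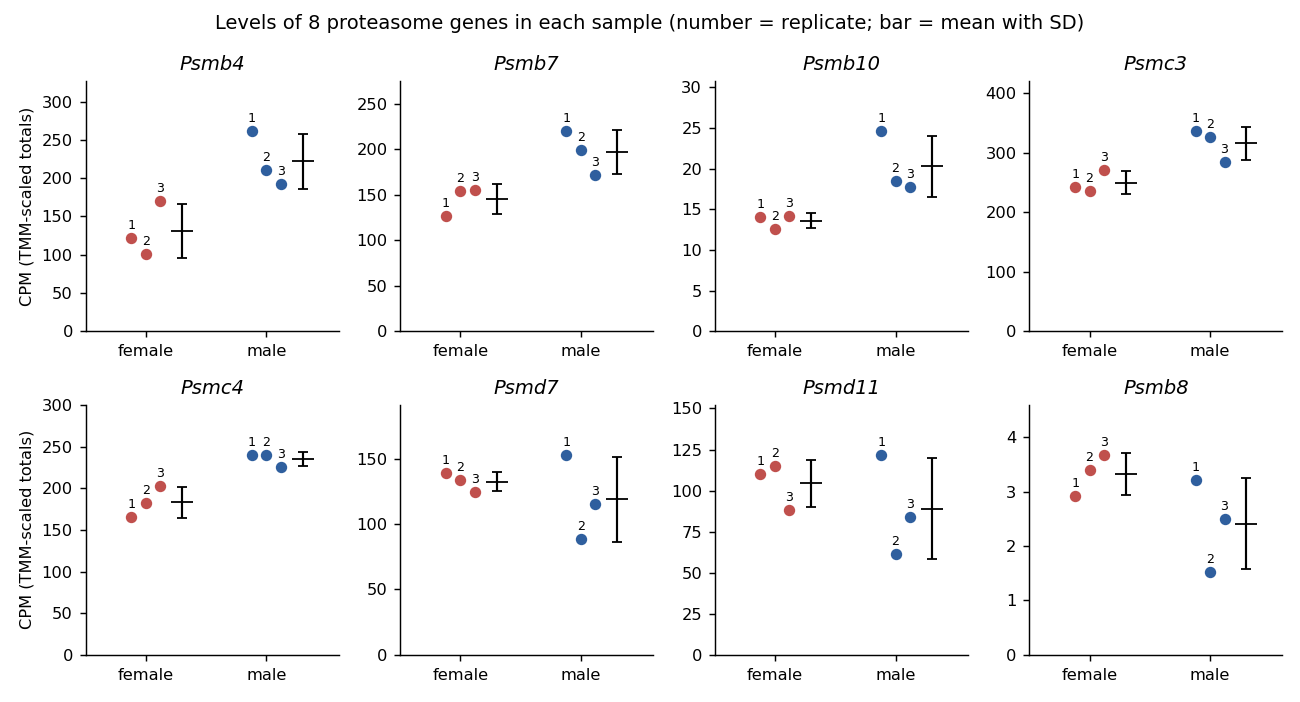
Level in CPM (TMM-scaled totals) of 8 genes in each female and male sample, numbered by replicate, with mean and SD (n = 3) beside the points. The sexes do not overlap for Psmb4, Psmb7, Psmb10, Psmc3 and Psmc4, and male sample 2 is the lowest sample for Psmd7, Psmd11 and Psmb8.

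Of the ATPases that form the base ring of the regulatory particle, all 6 had log2 fold changes above 0, from 0.07 to 0.36. Psmc4 (NM_011874; chromosome 7, 28826726 to 28835120) had 165.8, 182.2 and 203 CPM in females and 240.5, 239.7 and 225.6 CPM in males. Its males were close together, above every female, and the difference on the log2 scale was 0.36 (SE 0.12, edgeR adjusted p 0.344). Psmc3 (NM_008948; chromosome 2, 90894166 to 90906526) had 242.2, 235.3 and 271.4 CPM in females and 336, 326.1 and 284.2 CPM in males. Psmc3 did not overlap either, with a log2 fold change of 0.34 (SE 0.12, edgeR adjusted p 0.36). Psmc1, Psmc2, Psmc5 and Psmc6 overlapped, with log2 fold changes of 0.15, 0.07, 0.26 and 0.15. Psmc2 was at -0.11 without male sample 1 and at -0.05 with length trends removed.

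Of the 7 lid subunits other than Psmd14, 5 were above 0. Psmd3 (NM_009439; chromosome 11, 98543868 to 98557293) had 162.9, 138.6 and 197.9 CPM in females and 266.7, 187.6 and 185.8 CPM in males, with a log2 fold change of 0.36 (SE 0.17, edgeR adjusted p 0.437). Psmd13 (NM_011875; chromosome 7, 148067867 to 148084542) had 111.5, 123 and 127.3 CPM in females and 181.2, 142.8 and 123.6 CPM in males, with a log2 fold change of 0.31 (SE 0.15, edgeR adjusted p 0.443). In both, male sample 1 was the highest and male samples lay within the female range, 2 of them for Psmd3 and 1 for Psmd13. Without male sample 1, Psmd3 had 0.16 and Psmd13 had 0.14. Psmd6, Psmd12 and Psmd8 had log2 fold changes of 0.28, 0.18 and 0.10, and Psmd8 was at -0.04 with length trends removed. Psmd14 had 0.24 (SE 0.14), and the scaffold Psmd1 had 0.03 (SE 0.12), with a 95% interval from -0.23 to 0.29.

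Psmd7 and Psmd11, both lid subunits, had log2 fold changes below 0. Psmd11 (NM_178616; chromosome 11, 80242117 to 80286750) had 109.9, 115.1 and 88.33 CPM in females and 121.8, 61.15 and 84.16 CPM in males. Psmd7 (NM_010817; chromosome 8, 110104281 to 110112382) had 138.7, 133.8 and 124.6 CPM in females and 152.9, 88.22 and 115.1 CPM in males. In both, male sample 1 was the highest and male sample 2 the lowest of the 6 samples. Their log2 fold changes were -0.22 (SE 0.21, edgeR adjusted p 0.694) and -0.15 (SE 0.17, adjusted p 0.752). Without male sample 1 they were -0.52 and -0.38, with edgeR adjusted p-values of 0.299 and 0.398, and without male sample 2 they were -0.01 and 0.02. Over the 6 samples, the median Pearson correlation of log2 CPM with the other members of at least 50 mean counts was 0.00 for Psmd11 and 0.05 for Psmd7, and 0.51 to 0.85 for the rest. All these genes share the same 6 libraries, so the correlations are a description. Psmd11 has a copy of its coding sequence elsewhere in the genome and Psmd7 has none.

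The chaperones that help to build the base are also in the list. Psmd9 had a female mean of 47.93 CPM ± 8.37 and a male mean of 57.37 CPM ± 9.68 (SD, n = 3 each), with a log2 fold change of 0.25 (SE 0.17). Psmd5 was counted 9 to 23 times a library, with a log2 fold change of 0.06 (SE 0.51). Psmd10, the single member on the X chromosome, had 1 count in female sample 3, 1 in male sample 3 and none elsewhere. It is among the genes with more than 1 RefSeq transcript whose levels could not be compared above. No sex difference can be read from these counts. Psmc3ip matches the symbol pattern but encodes a protein of meiotic recombination rather than a subunit. It had a female mean of 15.47 CPM ± 4.49 and a male mean of 18.77 CPM ± 0.332 (SD, n = 3 each), and without it 15 of 17 regulatory IDs were above 0.

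How the members moved across samples was examined in the 13 core and 17 regulatory IDs averaging 50 counts or more. The deviation of log2 CPM from the mean of the 6 samples was taken for each. Core members had median deviations of -0.19, -0.17 and -0.01 in the females by number, against 0.42, 0.12 and -0.08 in the males. All 13 were above their mean in male sample 1, compared with 1 in each of female samples 1 and 2. Regulatory members had medians of -0.21, -0.04 and -0.01 in females and 0.30, 0.10 and -0.07 in males, and all 17 were above their mean in male sample 1. Male sample 3 lay below female sample 3 for both particles. The median deviation of all tested IDs was 0.01 to 0.03 in every sample.

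**Figure D4:**
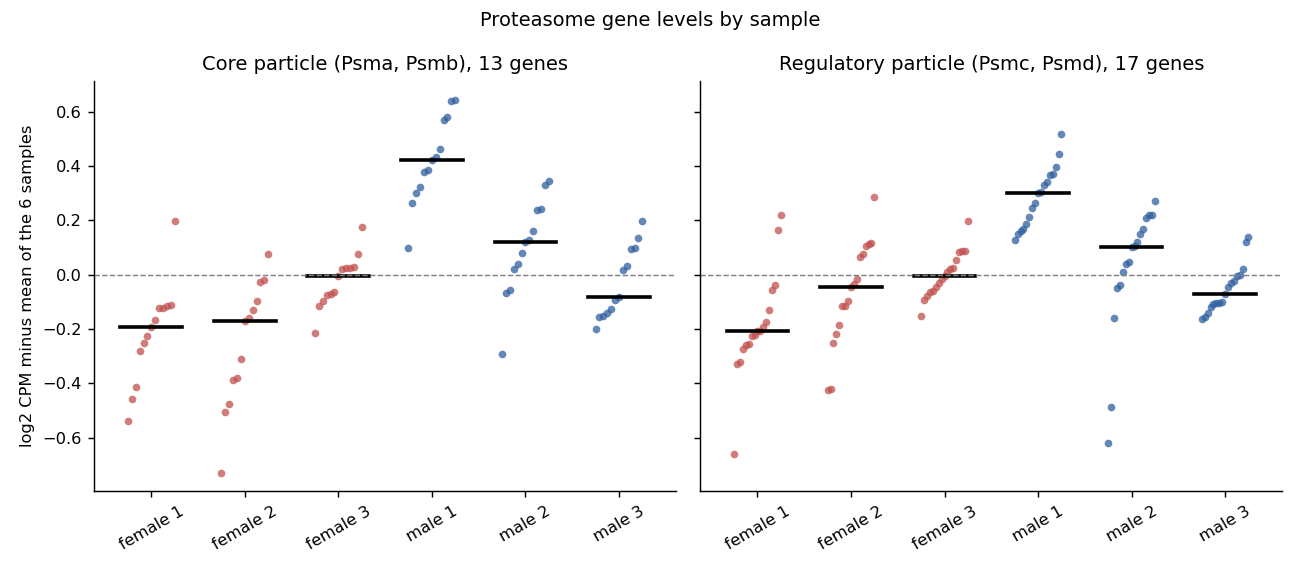
Deviation of log2 CPM from the mean of the 6 samples (vertical axis) for 13 core genes (left) and 17 regulatory genes (right) with a mean of at least 50 counts, by sample (points are genes, bars are medians). All genes are above 0 in male sample 1, while the medians of male sample 3 are -0.08 and -0.07, below those of female sample 3.

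Values depended on single samples. Without male sample 1, 11 of 16 core and 14 of 18 regulatory IDs were above 0, with medians of 0.139 and 0.125. Without female sample 1 the medians were 0.205 and 0.134. The 16 core IDs, here and in the length fit below, include Psmb11, whose direction is not read. Transcript length moved with the result too. Across 12750 tested IDs with a length, the log2 fold change had a Spearman's rho of -0.253 with length. Tested IDs of 39 to 1809 nt had a median log2 fold change of 0.14 and held 23 of the 34 tested members, whose median was 0.27. Those of 1810 to 2872 nt had a median of 0.06, and 0.21 over the 9 members among them. Once the trend with length was removed from each sample, 11 of 16 core and 13 of 18 regulatory IDs were above 0, with medians of 0.17 and 0.09. Psmb4 had a log2 fold change of 0.59 and Psmb7 one of 0.27 in that fit. With the trend removed, Psmc4 and Psmc3 had 0.22 and 0.23.

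Direction held in part of the list. In every alternative that tested them, log2 fold changes were above 0 for 10 core members (Psma1, Psma2, Psma4, Psma5, Psma7, Psmb3, Psmb4, Psmb5, Psmb7 and Psmb10). Psma7 was tested in 16 of the 17. The same held for 12 regulatory members (Psmc1, Psmc3, Psmc3ip, Psmc4, Psmc5, Psmc6, Psmd3, Psmd6, Psmd9, Psmd12, Psmd13 and Psmd14). The share of all tested IDs that kept their sign was not computed. Many alternatives refit the same 6 libraries, so a kept sign is a description only. For 5 members the sexes did not overlap with males above, or 14.7% of those tested, compared with 8.7% of all tested IDs. None of the tested members had all males below all females, compared with 8.35% of all.

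The summed levels of the particles are given without a test. Summed over their IDs, core members had 1388, 1496 and 1604 CPM in females and 2148, 1795 and 1583 CPM in males. Regulatory members had 2507, 2744 and 2809 CPM in females and 3422, 2967 and 2723 CPM in males. The ratio of the sums was 0.554, 0.545 and 0.571 in females and 0.628, 0.605 and 0.581 in males. Each male ratio was above each female ratio, which is a description chosen after the values were seen, and the nearest pair was female sample 3 and male sample 3. Core transcripts were also shorter, with a median of 1162.5 nt over the tested IDs compared with 1802 nt for regulatory ones.

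Partners of the proteasome outside the list were examined by role. The alternative activators and the inhibitor Psmf1 gave 4 tested IDs, all below 0 (median -0.18). Psme4, the large nuclear activator, had 457.8, 466.6 and 465.3 CPM in females and 424.2, 413.3 and 451.3 CPM in males, without overlap and with a log2 fold change of -0.11 (SE 0.11, edgeR adjusted p 0.722). Psme1 and Psme3 had -0.15 (SE 0.15) and -0.22 (SE 0.14). The assembly chaperones gave 4 tested IDs, all above 0 (median 0.15), led by Pomp, the maturation factor of the core particle. Pomp had a female mean of 99.0 CPM ± 21.4 and a male mean of 131 CPM ± 14 (SD, n = 3 each), without overlap, and a log2 fold change of 0.41 (SE 0.16, edgeR adjusted p 0.385).

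Among further partners of the regulatory particle, 4 of 6 tested IDs were above 0. Sem1, a small lid subunit, was lower in males at an unadjusted p of 0.0329 in edgeR, with a log2 fold change of -0.38 (SE 0.16, adjusted p 0.396). Adrm1, a ubiquitin receptor of the regulatory particle, had 0.34 (SE 0.23). Uchl5 and Usp14, the other deubiquitinases of the particle, had at most 6 counts per sample. Nfe2l2 (NM_010902) had a female mean of 78.7 CPM ± 2.84 and a male mean of 80.2 CPM ± 2.69 (SD, n = 3 each), a log2 fold change of 0.03 (SE 0.12). Nfe2l1 had 0 to 3 counts for each of its 3 IDs and was not tested. Its small partner Mafk had a log2 fold change of 0.54 (SE 0.22, edgeR adjusted p 0.385), and Mafg one of 0.02 (SE 0.17). The protease Ddi2 and the glycanase Ngly1, which process Nfe2l1, had -0.13 (SE 0.17) and -0.01 (SE 0.15).

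Upstream steps of the pathway were mixed in direction. Of 9 tested IDs for activating and conjugating enzymes, 3 were above 0, and of 8 for shuttle factors and the p97 complex, 4 were above 0. Vcp, the p97 ATPase that extracts substrates, had a log2 fold change of -0.01 (SE 0.12), and the shuttle factor Rad23b one of 0.03 (SE 0.13). Among activating and conjugating enzymes, 1 ID was higher in males and 2 in females at an unadjusted p under 0.05 (6.68% and 4.82% of all tested IDs), and no shuttle or p97 ID passed it. No ID of these partner lists had an edgeR adjusted p under 0.05.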

How the data were processed

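The authors trimmed reads with Trimmomatic 0.32 and, per the labels, named TopHat2 2.1.1, Cufflinks 2.2.1 and featureCounts 1.5.1 with build mm9 (NCBIM37). Each sample had 1 deposited table, holding unnormalised read counts by RefSeq ID. Strand setting and the treatment of reads shared by transcripts or by several places are not given in the sources used here.

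IDs were matched to symbols (23359 of 23485) and to GENCODE lengths (21516). Any ID that reached 10 counts in a sample entered the test, which used edgeR 4.0.16 (TMM, quasi-likelihood F test, Benjamini-Hochberg over 13374 IDs) in R 4.3.3, without covariates. The procedure was tested on simulated data with less spread between replicates than these samples have, so the test does not measure its power here. CPM used TMM-scaled totals, and log2 CPM a prior count of 2. Copies were searched with BLAST 2.17.0. Promoters came from RefSeq (GRCm38.p6), and no coordinates were converted between builds. Samples were grouped by labelled sex. Each replicate was pooled RNA of separate embryos, so p-values measure the spread between pools.

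Values per sample are given for called members, for the catalytic and immunosubunits, for Psma7, and, in each particle, for the 4 largest positive and 3 largest negative log2 fold changes among members with a mean of at least 50 counts. Psmb3, Psmb11 and other values per sample outside this rule were chosen after the values were seen. Members and lists were chosen with earlier results of these data known. The 17 alternatives covered scaling, filters, DESeq2 1.42.0, 1 RUVr factor, length trends (lowess, span 0.5), summed IDs, a replicate block and leaving out each sample.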

Additional observations from a re-analysis of the deposited data

How the results depend on the processing

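The number of core members called at an adjusted p under 0.05 was 0 and changed with the tool and filter: it was 2 without a low-count filter (Psmb4 and Psmb11, with 276 of 23485 IDs called in all, where Psmb11 rests on female sample 2 and nothing is read from it), 1 with DESeq2 (Psmb4, 95 of 13374), 2 with DESeq2 and 1 RUVr factor (Psmb4 and Psmb7, 344 of 13374), and 0 to 1 when each sample was left out. The 1 call came without female replicate 3 (Psmb4, log2 fold change 1.00, adjusted p 0.0405, 51 of 13162 IDs called in all). No regulatory member was called in any of the 17 alternatives. Medians ranged from 0.139 (without male replicate 1) to 0.446 (without female replicate 3) in the core and, in the regulatory particle, from 0.0913 (length trend removed) to 0.277 (without male replicate 3). Of the members named by rule, Psmd7 (log2 fold change -0.15) ranged from -0.3795 without male replicate 1 to 0.02361 without male replicate 2 (adjusted p 0.974), and Psmb6 (0.21) was -0.0059 with the length trend removed (adjusted p 0.991). The cause of these changes was not tested. Same-numbered female and male samples had correlations of deviations of -0.287, -0.0643 and -0.203, against -0.0772 to 0.217 for the other pairs. Deviations within a sex offset one another, so these values cannot settle whether a number marked a shared batch or litter. A fit with the replicate block called 0 core and 0 regulatory members, with medians of 0.316 and 0.203. With a biological coefficient of variation of 0.192 and 3 samples a sex, members with few counts, such as Psmb8 and Psma7, had wide errors.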
